A study of Homo sapiens with 2 samples.

Results

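The contractile protein genes described here are the myosin heavy chains (MYH), myosin light chains (MYL), troponins (TNNC, TNNI and TNNT) and tropomyosins (TPM1 to TPM4). They were taken by symbol from the protein-coding genes of RefSeq (GRCh38.p14) on chromosomes 1 to 22, which gave 42 of 19126 genes. For each gene, called summits of ChIP-seq peaks within 1000 bp of either gene end, called gene-end summits here, were counted in each library. The members were chosen by symbol, but the set and its split into muscle and non-muscle genes were selected on the gene-end calls of these lists, which were known when it was proposed. The counts at gene ends are therefore given as a description, with no test.

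The chromatin came from Ishikawa cells, an established line of human endometrial cancer. A control lentivirus (genotype negative control) had been put into 1 population, and a virus for TCF19 over-expression into the other, whose library is called the TCF19 library here. Both populations were selected with puromycin, and chromatin from both was precipitated with the same antibody against TCF19, a PHD finger protein of the nucleus. Each group had 1 library and therefore no replicate, so no difference between the groups could be set against a spread between cultures. The control list held 169542 summits on chromosomes 1 to 22 and X and the TCF19 list 111569, and the genome-average coverage recovered from the peak statistics was 1.58 and 1.43 reads per position. At the TCF19 gene itself, control had 0 summits and the TCF19 library 3, the highest of 143 reads. Reads from the TCF19 sequence of the virus may be placed on this gene, so binding there cannot be told apart from viral copies.

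Myosin II is built from a pair of heavy chains, which split ATP and pull on actin, and of light chains, which stiffen and regulate the lever arm. In striated muscle, calcium binds troponin C, troponin I and troponin T then shift tropomyosin along the actin filament, and myosin gains access to it. Heart and skeletal muscle use their own members of each family, which are largely silent in epithelial cells. Non-muscle myosin II, with the heavy chains of MYH9 and MYH10 and the light chains of MYL6 and MYL12A, drives cell shape and division in nearly every cell, endometrial epithelium included. The 42 genes were sorted into 24 striated muscle genes, 4 non-muscle genes (MYH9, MYH10, MYL6 and MYL12A) and 11 genes mostly of smooth muscle or broad use (MYH11, MYH14, MYL5, MYL6B, MYL9, MYL10, MYL12B and TPM1 to TPM4). The other 3 were TNNI3K, which encodes a cardiac kinase and not a troponin, and MYH16 and MYL12BP2, which were put in no list.

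The sequences below show the promoters on which the description turns: those of the 5 members with a summit within the 250 bases before the gene start, and 3 of striated muscle genes for contrast. Each is the 250 bases before the start, from the RefSeq promoter table (GRCh38.p14), 5′ to 3′ on the gene's own strand, with CpG dinucleotides in capitals. The table matched 28 of the 42 members, 14 of them striated.
MYH10, heavy chain of non-muscle myosin IIB, minus strand, chr17:8630726-8630975.
MYH10: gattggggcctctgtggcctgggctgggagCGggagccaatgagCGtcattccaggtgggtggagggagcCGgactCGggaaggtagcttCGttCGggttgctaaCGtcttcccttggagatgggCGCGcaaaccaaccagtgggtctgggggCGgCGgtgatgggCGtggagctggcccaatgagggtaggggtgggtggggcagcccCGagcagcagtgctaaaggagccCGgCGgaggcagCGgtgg
MYL12A, regulatory light chain of non-muscle myosin, plus strand, chr18:3247232-3247481.
MYL12A: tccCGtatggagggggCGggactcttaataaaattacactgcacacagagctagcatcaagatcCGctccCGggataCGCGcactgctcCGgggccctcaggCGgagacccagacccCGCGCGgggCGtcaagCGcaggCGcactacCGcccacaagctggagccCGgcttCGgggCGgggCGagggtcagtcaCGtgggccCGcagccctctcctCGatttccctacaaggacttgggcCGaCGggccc
MYL12B, its neighbour and close copy, plus strand, chr18:3261883-3262132.
MYL12B: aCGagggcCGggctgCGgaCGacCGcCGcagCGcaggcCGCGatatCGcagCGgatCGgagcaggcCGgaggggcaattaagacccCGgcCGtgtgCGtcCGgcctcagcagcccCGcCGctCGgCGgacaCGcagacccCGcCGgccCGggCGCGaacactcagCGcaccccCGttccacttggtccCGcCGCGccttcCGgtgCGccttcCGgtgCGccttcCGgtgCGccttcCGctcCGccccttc
MYL6B, a broadly expressed essential light chain, plus strand, chr12:56152337-56152586.
MYL6B: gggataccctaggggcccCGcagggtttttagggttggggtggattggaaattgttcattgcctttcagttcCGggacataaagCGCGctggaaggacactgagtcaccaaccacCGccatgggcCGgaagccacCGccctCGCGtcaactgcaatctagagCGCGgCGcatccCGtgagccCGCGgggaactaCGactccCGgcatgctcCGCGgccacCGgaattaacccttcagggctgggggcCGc
TNNT1, slow skeletal troponin T, minus strand, chr19:55149207-55149456.
TNNT1: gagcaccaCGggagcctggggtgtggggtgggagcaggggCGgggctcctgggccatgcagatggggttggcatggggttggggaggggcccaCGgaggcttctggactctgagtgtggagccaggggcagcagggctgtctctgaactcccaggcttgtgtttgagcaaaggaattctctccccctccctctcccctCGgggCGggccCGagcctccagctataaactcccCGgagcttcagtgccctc
MYL1, fast skeletal essential light chain, minus strand, chr2:210315175-210315424.
MYL1: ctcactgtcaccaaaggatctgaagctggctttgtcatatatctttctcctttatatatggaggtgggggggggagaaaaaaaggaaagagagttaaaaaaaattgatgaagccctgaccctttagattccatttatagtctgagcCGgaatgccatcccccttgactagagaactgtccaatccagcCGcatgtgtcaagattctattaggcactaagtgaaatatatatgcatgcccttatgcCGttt
MYH1, heavy chain of fast type IIX fibres, minus strand, chr17:10518543-10518792.
MYH1: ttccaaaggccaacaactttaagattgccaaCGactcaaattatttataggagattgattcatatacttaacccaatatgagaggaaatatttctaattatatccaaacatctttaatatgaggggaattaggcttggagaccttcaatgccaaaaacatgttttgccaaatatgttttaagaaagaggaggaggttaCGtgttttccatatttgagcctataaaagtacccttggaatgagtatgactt
MYH6, cardiac alpha heavy chain, minus strand, chr14:23408274-23408523.
MYH6: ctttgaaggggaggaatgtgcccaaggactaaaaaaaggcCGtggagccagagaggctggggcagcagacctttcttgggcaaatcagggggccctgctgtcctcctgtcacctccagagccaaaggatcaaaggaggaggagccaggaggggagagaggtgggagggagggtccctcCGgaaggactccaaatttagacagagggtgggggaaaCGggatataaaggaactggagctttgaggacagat

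The first 4 of these promoters held 16, 24, 40 and 21 CpG dinucleotides, in the order shown, and the 4 striated ones 7, 3, 2 and 3.

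Fewer than 1 in 2 striated muscle genes had a gene-end summit in either library, and the 4 listed non-muscle genes had them at 3 or 4 of 4. In control, 4 of 24 striated genes had one (16.7%, exact binomial interval 4.7 to 37.4), against 54.4% of all 19126 genes. In the TCF19 library 11 of 24 had one (45.8%, 25.6 to 67.2), against 65.1% of all genes. The non-muscle genes had one at 3 of 4 in control (75%, 19.4 to 99.4) and at 4 of 4 in the TCF19 library (100%, 39.8 to 100). Genes of smooth muscle or broad use lay between, with 4 of 11 (36.4%, 10.9 to 69.2) and 8 of 11 (72.7%, 39.0 to 94.0). This class includes MYL12B, MYH14 and TPM4, which also serve non-muscle cells. MYL12B had a gene-end summit in both libraries, MYH14 in the TCF19 library alone and TPM4 in neither. The intervals of the 3 classes overlapped in each library. Over all 42 members the counts were 11 (26.2%, 13.9 to 42.0) and 23 (54.8%, 38.7 to 70.2).

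**Figure D1:**
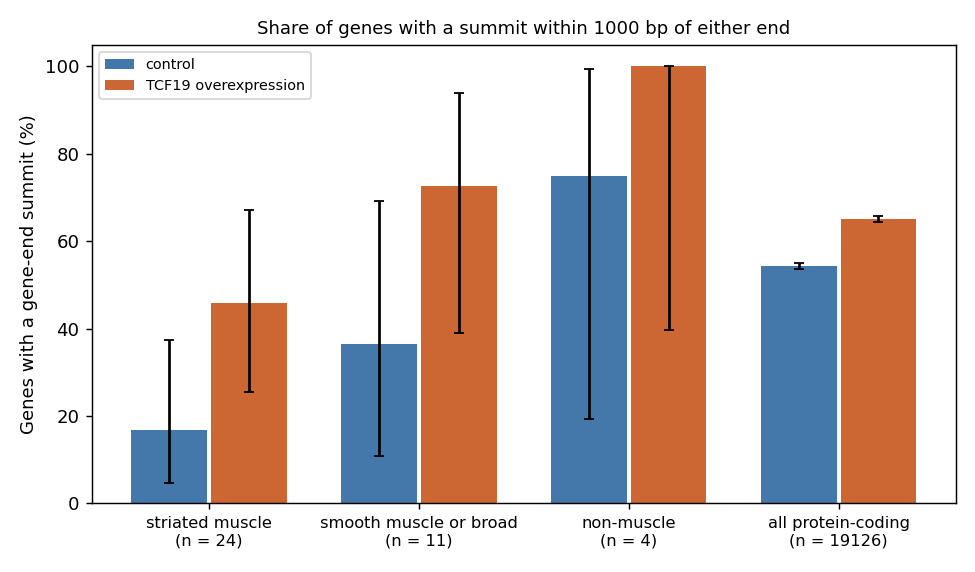
Share of genes with a summit within 1000 bp of either end, in percent, by class and library, with all protein-coding genes at the right; bars carry exact 95% binomial intervals (counting error only). The striated class stands at 16.7% in control and 45.8% in the TCF19 library, below the 54.4% and 65.1% of all genes, and the intervals of the small classes are wide.

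Gene-end summits were listed in both libraries at 11 of 42 members, and at 48.7% of all genes. These 11 were all the members with one in control, and of all genes with one in control 89.6% had one in the TCF19 library too. A further 12 members had one with TCF19 alone and 0 with the control virus alone, and all genes gave 16.4% and 5.64%. Neither library had one at 19 members, 13 of them striated, and at 29.3% of all genes. A count of 0 of 42 allows a share of up to 7.14%. The 12 were 7 striated genes (TNNT1, TNNT2, TNNI1, MYH7, MYH7B, MYH8 and MYL11), the non-muscle gene MYL6, and MYL6B, MYL9, MYH14 and TPM2. The control library had the higher recovered genome-average coverage, at 1.58 against 1.43 reads per position. The settings of the peak calling are not given, so these values do not settle which library had more reads. From pileup and local background, an equal occupancy would have been listed in control with a probability of 0.773 to 0.986 at the 12 genes. The value was at least 0.95 at 5 genes, of which MYL6 and MYL6B share the same summit. Each probability is the highest over the gene's summits and covers counting chance only. The genes were picked for a summit listed with TCF19 alone, so these probabilities run high. A place with no listed summit may still hold reads, since the lowest pileup listed at the genome-average background was 6 reads in either library.

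The window decides some of these calls. Of the members inside it, TNNI1 had its nearest summit 816 bp from an end in the TCF19 library and MYH9 730 bp in control. Just outside it were MYL10, with a summit of 21 reads at 1348 bp in the TCF19 library and of 20 reads at 1431 bp in control, and MYH14, with one of 17 reads at 1419 bp in control. Of the striated genes, MYL2 had 15 reads at 1627 bp in control and 10 at 1845 bp in the TCF19 library. TNNI1 had 18 reads in control, 1823 bp from its lower end. With a window of 2000 bp the striated counts were 6 in control and 12 in the TCF19 library, against 65.0% and 73.0% of all genes.

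The non-muscle heavy chain genes MYH9 and MYH10 had gene-end summits in both libraries, and the highest summits near their starts lay in the first kilobase of the gene. MYH10 (chromosome 17, 8474212 to 8630725, minus strand) had its highest start summit 981 bp past the start in control, and its pileup was 20 reads (exact Poisson interval 12.2 to 30.9). In the TCF19 library it stood 970 bp past the start, 11 bp away, with 22 reads (13.8 to 33.3). The control library had another at 456 bp, with 17 reads, and the TCF19 library had others at 6 and 764 bp before the start, with 11 and 14 reads. At the other end of MYH10, control alone had a summit of 21 reads (13.0 to 32.1), which also lay 757 bp from an end of NDEL1. MYH9 (chromosome 22, 36281280 to 36387967, minus strand), the heavy chain of non-muscle myosin IIA, had 16 reads (9.1 to 26.0) in control, 730 bp past its start. The TCF19 library had 20 reads (12.2 to 30.9) at 677 bp and 18 reads (10.7 to 28.4) at 302 bp. At neither heavy chain gene were the intervals of the libraries apart.

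The light chains of non-muscle myosin lie in 2 neighbouring pairs. MYL12A (chromosome 18, 3247482 to 3256237) and MYL12B (chromosome 18, 3262133 to 3278461) follow each other on the plus strand. MYL12A had 12 reads (6.2 to 21.0) 77 bp before its start and 13 reads (6.9 to 22.2) 460 bp past it in control. In the TCF19 library it had 16 reads (9.1 to 26.0) 532 bp past it. All 3 summits also lay within 1000 bp of an end of MYOM1, a gene of the sarcomeric M-band, so they cannot be assigned to MYL12A alone. At MYL12B the control summits had 14 reads (7.7 to 23.5) and 10 reads (4.8 to 18.4), and those of the TCF19 library 24 (15.4 to 35.7) and 23 (14.6 to 34.5). The 24 reads were the highest gene-end pileup of any member in either library, and the intervals of the libraries still overlapped.

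MYL6B (chromosome 12, 56152587 to 56157982) and MYL6 (chromosome 12, 56158359 to 56161579) had no gene-end summit in control. In the TCF19 library they shared 1 interval of 1028 bp between them, with summits of 17 reads (9.9 to 27.2) and 18 reads (10.7 to 28.4). These lay 618 and 348 bp before the start of MYL6 and 241 and 29 bp from the end of MYL6B, and they count for both genes. MYL6B had a further summit of 12 reads (6.2 to 21.0) 154 bp before its own start, in the promoter shown above and 606 bp from an end of LOC124902942.

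The tropomyosins differed among themselves. TPM1 (chromosome 15, 63042747 to 63071915) had summits at the lower end of its span in both libraries, the highest of 16 reads (9.1 to 26.0) in control and 18 (10.7 to 28.4) with TCF19. Its start in the promoter table lies farther in, and there too both libraries had a summit, of 20 reads (12.2 to 30.9) 239 bp past it in control and of 14 reads (7.7 to 23.5) 159 bp past it in the TCF19 library. TPM3 (chromosome 1, 154155308 to 154192100, minus strand) likewise had a summit 158 bp past its inner start in both libraries, with 15 reads (8.4 to 24.7) and 16 reads (9.1 to 26.0). Its gene-end summits, of 13 and 16 reads, lay at the far end of the gene and 79 and 62 bp from an end of NUP210L, so they cannot be assigned to TPM3 alone. TPM2 (chromosome 9, 35681993 to 35690056, minus strand) had none in control and 3 around its start in the TCF19 library, the highest of 17 reads (9.9 to 27.2). TPM4, which encodes a tropomyosin of the non-muscle cytoskeleton and platelets, had no gene-end summit in either.

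Of the smooth muscle members, MYH11 (chromosome 16, 15703135 to 15857028), the smooth muscle heavy chain, had a summit at its higher end in both libraries, 72 bp apart, with 19 reads (11.4 to 29.7) in control and 16 (9.1 to 26.0) with TCF19. MYL9, the smooth muscle regulatory light chain, had 16 reads (9.1 to 26.0) at its higher end in the TCF19 library and none in control. MYH14, a further non-muscle heavy chain found in epithelia, had 14 reads (7.7 to 23.5) 173 bp past its start in the TCF19 library and as many at its far end.

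**Figure D2:**
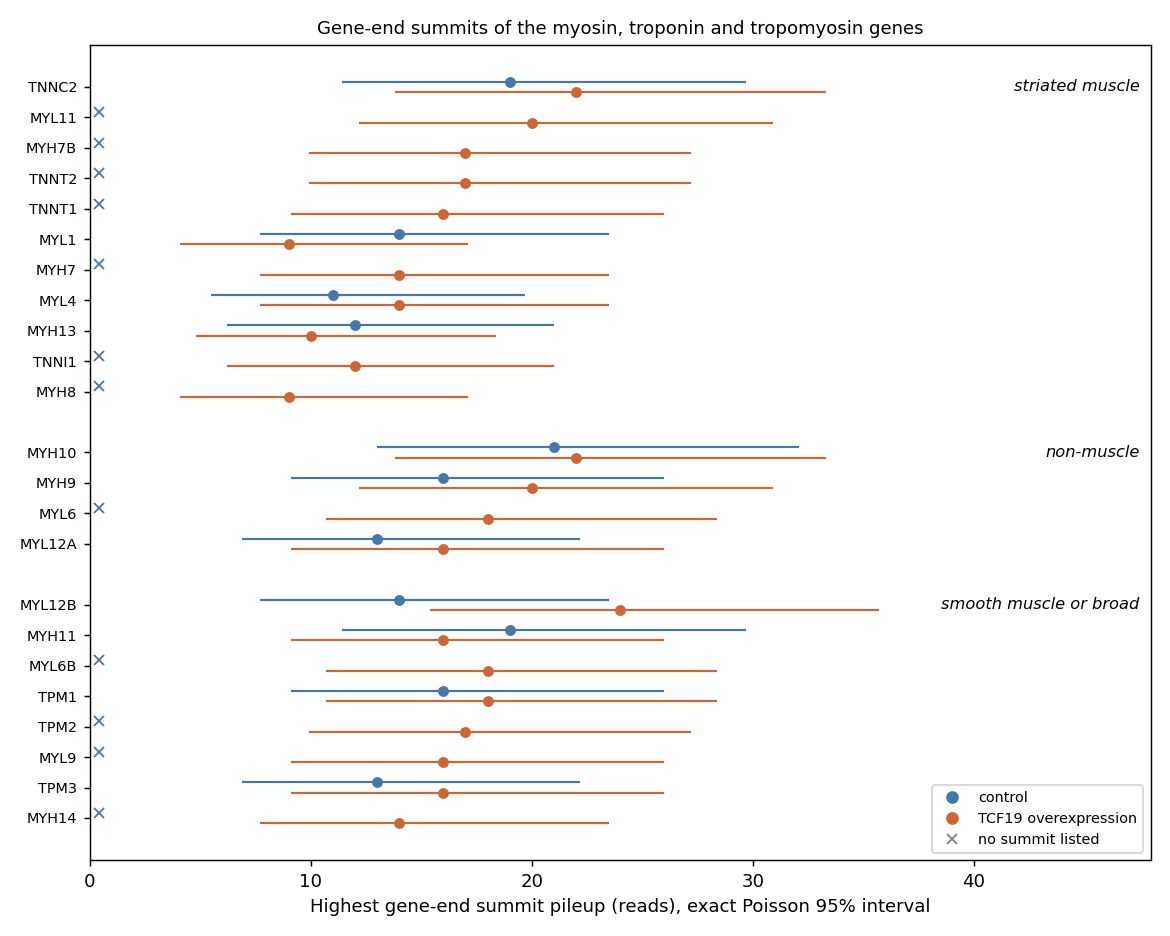
Highest gene-end summit pileup in reads for the 23 members with one, by class and library; points are pileups, lines are exact Poisson 95% intervals and crosses mark genes with no listed summit. The intervals of the 2 libraries overlap at all 11 genes with a summit in both, and MYL12B has the highest value, 24 reads.

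Among the 24 striated genes, 4 had gene-end summits in both libraries. TNNC2 (chromosome 20, 45823214 to 45833306), the calcium sensor of fast skeletal muscle, had the highest. At its lower end control had 19 reads (11.4 to 29.7) at each of a pair of summits, and the TCF19 library had 16 (9.1 to 26.0) and 22 (13.8 to 33.3), 135 and 126 bp away. The local background there was 3.65 to 3.81 times the genome average. At the higher end of TNNC2 the TCF19 library alone had 16 reads (9.1 to 26.0), 155 bp from an end of SNX21.

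MYL1 (chromosome 2, 210290150 to 210315174, minus strand) was, of the 14 striated genes with a start in the promoter table, the 1 with a summit within 1000 bp of it in both libraries. Control had 14 reads (7.7 to 23.5) 253 bp past the start and the TCF19 library 9 (4.1 to 17.1) at 191 bp, both at genome-average background. MYL4 (chromosome 17, 47189433 to 47227650), the light chain of atrial and fetal muscle, had 11 reads (5.5 to 19.7) and 14 (7.7 to 23.5) below its span, but 227 and 253 bp from an end of CDC27, a subunit of the anaphase-promoting complex. MYH13, the extraocular heavy chain, had 12 reads (6.2 to 21.0) at each of 2 summits in control and 10 (4.8 to 18.4) at 1 in the TCF19 library, at the end of the gene away from its start.

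The 7 striated genes seen in the TCF19 library alone had highest pileups of 9 to 20 reads. MYL11 (chromosome 16, 30370934 to 30377991), the fast skeletal regulatory light chain, had 20 reads (12.2 to 30.9) 793 bp before its start, which is 353 bp from an end of TBC1D10B. Its other summit, of 17 reads (9.9 to 27.2), was 82 bp from an end of SEPTIN1. MYH7B, a heavy chain of slow and cardiac muscle, had 17 reads (9.9 to 27.2) at its lower end, 468 bp from an end of GSS, which encodes glutathione synthetase. TNNT1 had 16 reads (9.1 to 26.0) 222 bp before its start, within the promoter shown above, with no other protein-coding end nearer than 2339 bp. TNNT2, the cardiac troponin T and a common blood marker of heart damage, had 17 reads (9.9 to 27.2) at the end of the gene away from its start. The other 3 were MYH7, the cardiac beta heavy chain (14 reads), TNNI1, slow skeletal troponin I (12 reads), and MYH8, the perinatal heavy chain (9 reads).

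Several summits of the striated genes thus lay beside a neighbour. In the TCF19 library 5 of their 14 gene-end summits were also within 1000 bp of another protein-coding gene's end, and in control 1 of 6. Over all protein-coding genes, with a summit counted once for each gene it is assigned to, 22.4% and 18.3% were. Without such summits, an alternative chosen after the data were seen, 3 striated genes kept a summit in control and 8 with TCF19, against 45.2% and 52.1% of all genes. Of the 4 non-muscle genes 2 kept one in each library (50%, exact interval 6.8 to 93.2), since the summits of MYL12A and MYL6 all lay at another gene's end too. The striated genes that lost theirs were MYL11, MYH7B and MYL4.

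At 13 striated genes neither library had a gene-end summit. They were the heavy chains MYH1, MYH2, MYH3, MYH4, MYH6 and MYH15, the light chains MYL2, MYL3 and MYL7, and the troponins TNNC1, TNNI2, TNNI3 and TNNT3. MYL2, MYL3 and TNNC1 serve slow and ventricular muscle, MYL7 the atrium, and TNNI3 encodes the cardiac troponin I measured in blood after heart attacks. Of all 42 members, 8 had no summit at the ends or inside in either library, 6 of them striated (MYL2, MYL3, MYL7, TNNC1, TNNI2 and TNNI3), with MYL5 and MYL10. Of all genes 12.5% had none. The 8 genes were 2469 to 24311 bp long, and of the genes in that range, which these 8 set, 22 members gave 8 with none and all genes 19.2%.

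Pileups at the members were close to those at other genes. The median of the highest gene-end pileup was 14 reads over the 11 members called in control and 16 over the 23 called in the TCF19 library. Over all genes called it was 14 (quartiles 12 to 17) and 17 (14 to 20). Among striated genes the medians were 13 and 14, with ranges of 11 to 19 and 9 to 22, and among non-muscle genes 16 and 19, with ranges of 13 to 21 and 16 to 22. The class ranges overlapped in both libraries. The median fold of the members' gene-end summits was 3.65 in control, equal to that of all genes, and 3.5 in the TCF19 library, against 3.98. In the TCF19 library their median local background was 2.74 times the genome average, against 2.22 over all genes. Striated summits had median folds of 3.12 in control and 3.68 in the TCF19 library, and non-muscle ones 3.97 and 3.35. At the 11 members with a summit in both, the pileup relative to the genome average was higher in the TCF19 library at 8 and lower at MYL1, MYH11 and MYH13, and all genes with a summit in both were higher at 81.6%. The counting intervals overlapped at 11 of 11.

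Summits near the start were then set against the promoter sequence. In the promoter table, 1 of 14 striated genes in control (MYL1) and 3 of 14 in the TCF19 library (MYL1, MYL11 and TNNT1) had a summit within 1000 bp of the start, where all 15101 genes with a promoter entry gave 51.1% and 63.7%. The non-muscle genes had 3 and 4 of 4, and those of smooth muscle or broad use 3 and 6 of 8.

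**Figure D3:**
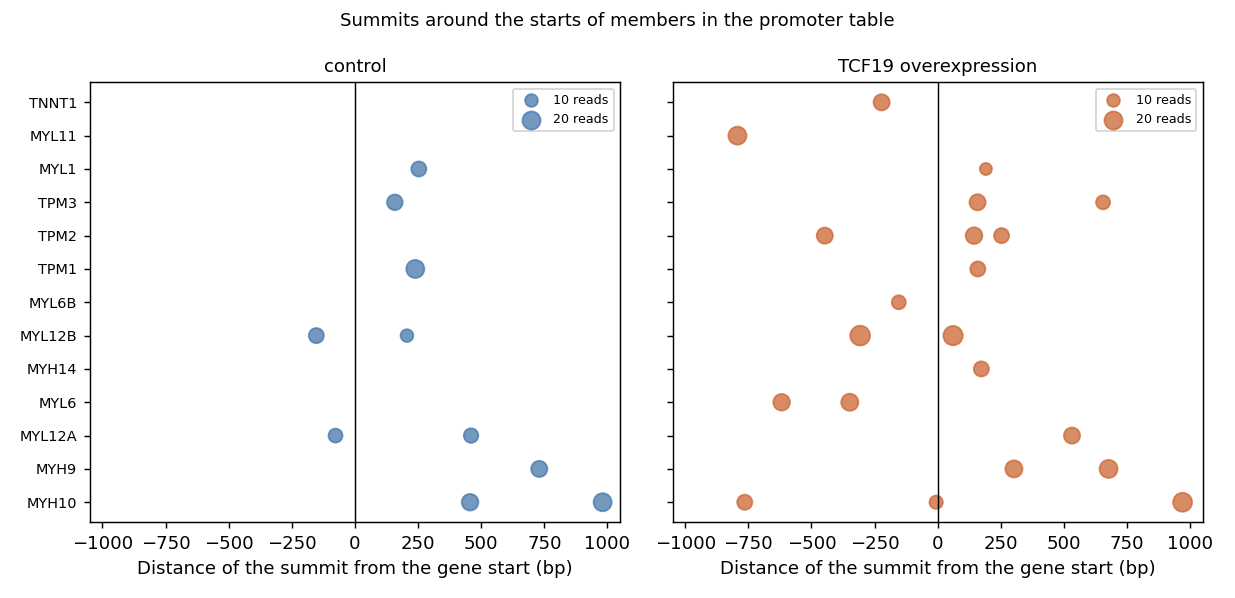
Distance in bp of each summit from the gene start, for the 13 members with a summit within 1000 bp of the start in the promoter table; the point area follows the pileup. The striated genes MYL1, MYL11 and TNNT1 fill the top lines with 1 summit each in the TCF19 library. MYH10, MYH9, MYL6, MYL12A, MYL12B, TPM2 and TPM3 have more than 1 in at least 1 library.

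The promoters of the classes differed in composition. The median number of CpG dinucleotides in the 250 bases was 3 in the 14 striated promoters, 18.5 in the 4 non-muscle ones and 24 in the 8 of smooth muscle or broad use, against 17 over all promoters. The median GC content was 50.4% in striated promoters and 67.2% in non-muscle ones, with 62.4% over all. Of the 14 striated promoters, 13 held fewer than 10 CpG, and the exception was MYL3, with 32. All genes with fewer than 10 CpG had a start summit at 27.2% in control and 26.7% in the TCF19 library, and those with 10 or more at 61.9% and 80.3%. The 13 striated genes with fewer than 10 CpG had one at 1 (7.69%, exact interval 0.2 to 36) and 3 (23.1%, 5 to 53.8). These intervals contain the shares of all genes with as few CpG. The 12 members with 10 or more CpG outside the striated class had one at 6 (50%, 21.1 to 78.9) and 10 (83.3%, 51.6 to 97.9). The limit of 10 was set with the values in view, and the part of CpG content in the difference between the classes was not tested.

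**Figure D4:**
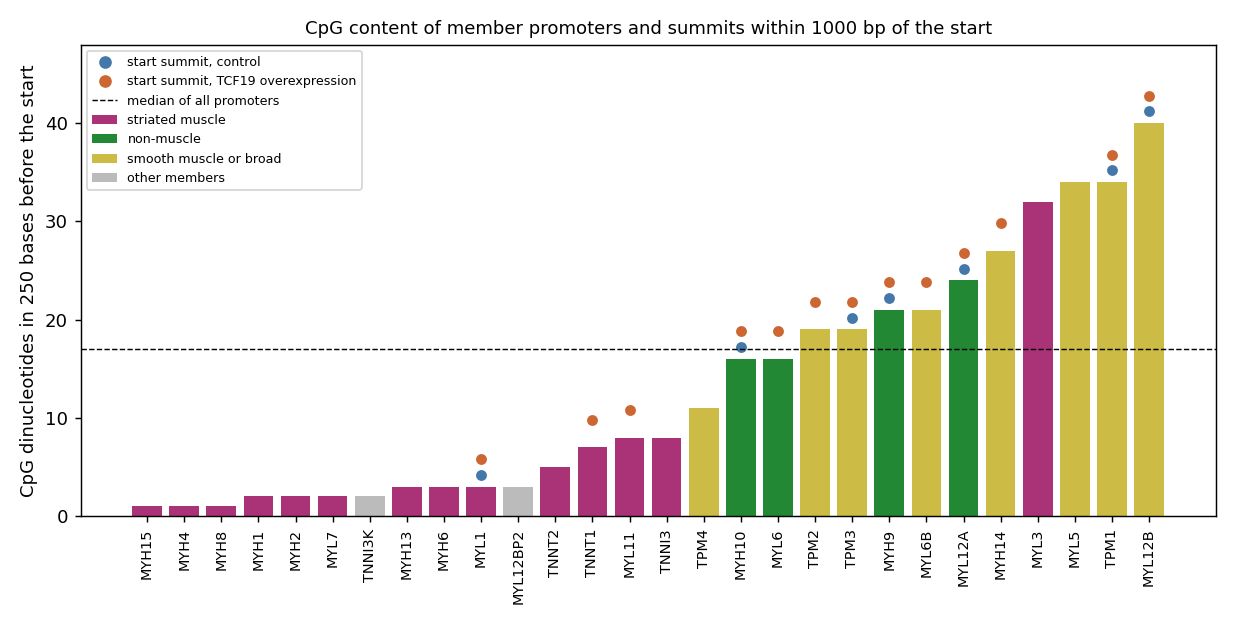
CpG dinucleotides in the 250 bases before the start of the 28 members in the promoter table, ordered from low to high; bars are coloured by class, dots mark a summit within 1000 bp of the start in each library and the dashed line is the median of all promoters, 17. Of the 15 promoters with fewer than 10 CpG 13 are striated, and start summits are more frequent on the high side.

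Motifs of muscle promoters were searched on both strands of the same 250 bases. TATAAA, the core of the TATA box, was in 9 of 14 striated promoters (64.3%) and in 9.3% of all promoters. Of those shown above, MYH1, MYH6 and TNNT1 have it on the gene's own strand. MYL1 has it on the opposite strand only, printed as TTTATA. It was in 0 of the 4 non-muscle and 0 of the 8 smooth muscle or broad promoters. All genes with TATAAA had a start summit at 36.4% in control and 39.4% in the TCF19 library, and those without it at 52.6% and 66.2%. Of the 9 striated genes with it, 1 and 2 had one. CANNTG, the E-box read by MyoD and many other factors, was in 10 of 14 striated promoters and in 57.6% of all. It was also in 4 of 4 non-muscle promoters and in 4 of 8 of smooth muscle or broad use. The CArG box of serum response factor was in MYL7 and TPM4 and in 1.17% of all promoters. The pattern searched for as the MEF2 site was in 0 of 28 and in 0.464% of all. It was a narrow one, and the MYH1 promoter shown above holds TTATTTATAG, which fits looser forms of the MEF2 site. The count of 0 therefore does not show that such sites are absent. A match describes letters in this window and shows no binding.

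Summits inside the genes, more than 1000 bp from both ends, were counted apart. Striated genes had 28 summits in control and 18 in the TCF19 library over 654.8 kb, or 4.28 (exact Poisson interval 2.84 to 6.18) and 2.75 (1.63 to 4.34) per 100 kb. All protein-coding genes had 6.27 and 3.98 per 100 kb. The control interval of the striated genes lay below the value of all genes, and the interval of the TCF19 library held it. Non-muscle genes had 4.87 (2.59 to 8.32) and 5.24 (2.86 to 8.79) per 100 kb. Genes of smooth muscle or broad use had 8.18 (5.63 to 11.5) and 8.43 (5.84 to 11.8), and in the TCF19 library this interval lay above the value of all genes. At a fold of at least 4 these 2 comparisons rested on 10 and 12 summits. Both intervals then held the value of all genes, while the densities still lay below and above it. There the striated control density was 1.53 (0.732 to 2.81) against 2.44 per 100 kb over all genes, and the smooth or broad density in the TCF19 library 2.97 (1.54 to 5.2) against 1.86. MYH14 gave, of the summits at any fold, 11 and 15 and MYH11 gave 10 and 11. MYH6 had 3 summits inside in control and 2 in the TCF19 library, the highest of 21 and 19 reads. A control summit lay 56 bp from the start coordinate of the hairpin of MIR208A, a heart microRNA carried within MYH6, and the nearest of the TCF19 library was 7705 bp away.

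The skeletal heavy chain genes MYH13, MYH8, MYH4, MYH1, MYH2 and MYH3 lie together on chromosome 17, between 10300865 and 10678417, and are used in turn through development and by different fibre types. Their exons are similar in sequence, so reads there may be placed on the wrong copy, and values inside these genes are uncertain. The 377.6 kb held 22 summits in control and 12 in the TCF19 library, or 5.83 (3.65 to 8.82) and 3.18 (1.64 to 5.55) per 100 kb. The rest of the neighbourhood, 500 kb on each side, had 6.9 and 3.4 per 100 kb, and chromosome 17 as a whole 7.07 and 5.86. The cluster thus had the density of its flanks within counting error, and in the TCF19 library it was below that of the chromosome. Its pileups ran from 8 to 14 reads in control and from 7 to 15 in the TCF19 library, with medians of 11 and 10 against 13 and 15 over the chromosome. The local background of its summits was low too, with medians of 1.19 and 1.03 times the genome average, so fewer reads there need not mean a lower fold. In each library 7 summits had a counterpart within 200 bp in the other. MYH10, the non-muscle gene on the same chromosome, had pileups of up to 21 and 22 reads, over local backgrounds of 3.81 and 2.49 times the genome average. The control summit of 21 reads also lay 757 bp from an end of NDEL1, and the next highest in control had 20 reads.

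**Figure D5:**
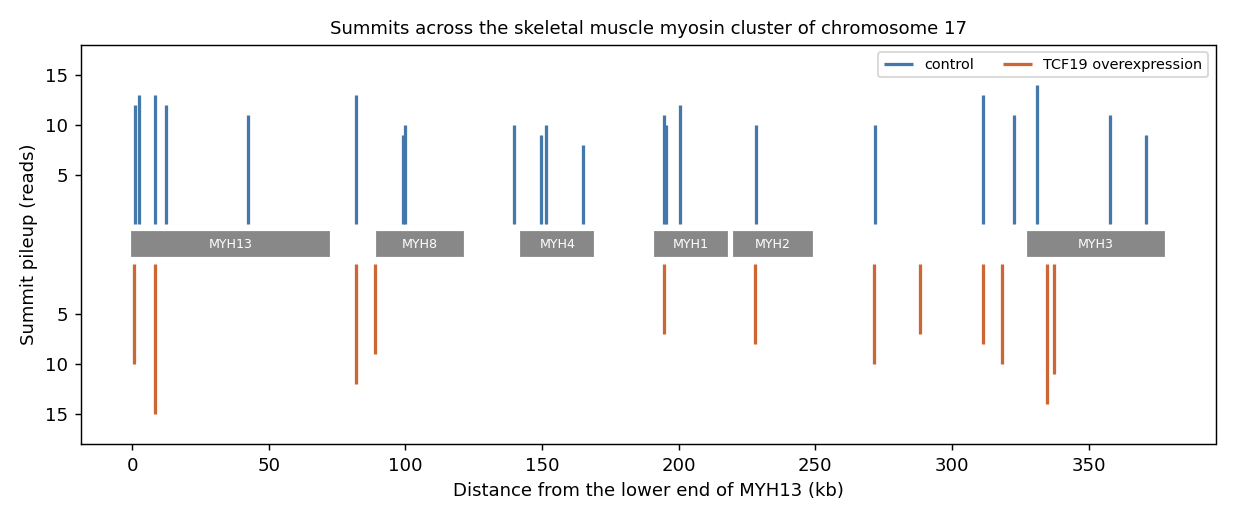
Summits across the skeletal muscle myosin cluster of chromosome 17, with the distance from the lower end of MYH13 in kb on the horizontal axis and the summit pileup in reads upward for control and downward for the TCF19 library; grey boxes are the myosin genes. The 22 control and 12 overexpression summits are low, at most 14 and 15 reads, and are spread over the genes and the gaps between them.

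The partners of these proteins were counted in lists drawn up with earlier results known. Of 26 sarcomere genes, 9 had a gene-end summit in control and 9 in the TCF19 library (34.6% in each, exact interval 17.2 to 55.7), 7 of them in both. The control interval held the 54.4% of all genes, and the TCF19 interval lay below their 65.1%. MYOM1 was called through the summits it shares with MYL12A. The highest was MYLK2, the skeletal muscle myosin light chain kinase, with 19 reads (11.4 to 29.7) and 29 (19.4 to 41.6), and DES, the muscle intermediate filament desmin, had 17 and 21. Of 10 smooth muscle contractile genes, 4 (40%, 12.2 to 73.8) and 6 (60%, 26.2 to 87.8) had one, led by CNN1 (calponin) with 20 and 22 reads. Of 15 genes of the non-muscle actomyosin system, 9 (60%, 32.3 to 83.7) and 13 (86.7%, 59.5 to 98.3) had one. The intervals of both lists held the shares of all genes. ACTB, cytoplasmic beta actin, had 30 reads (20.2 to 42.8) and PFN1, profilin, 29 (19.4 to 41.6) in the TCF19 library and neither had a summit in control, while ACTG1 had 25 (16.2 to 36.9) in control alone.

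Genes of the factors that switch on muscle genes were a further list. Of 10 such genes, 8 had a gene-end summit in control (80%, 44.4 to 97.5) and 7 with TCF19 (70%, 34.8 to 93.3), and these intervals hold the 54.4% and 65.1% of all genes. MYOD1 had 19 reads (11.4 to 29.7) and 17 (9.9 to 27.2), MYOG 15 (8.4 to 24.7) and 20 (12.2 to 30.9), and SRF 19 (11.4 to 29.7) and 22 (13.8 to 33.3). As a comparison, 8 epithelial marker genes had one at 7 in each library, among them EPCAM, CDH1, KRT8 and KRT18. Peaks of 1 protein do not measure expression, so the lists check the cell type of neither library.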

How the data were processed

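The submitters' processing notes name BWA 0.7.12, MACS2 2.1.0 and the build hg38. For their settings, duplicates and any input, the sources used here give no detail. There was 1 peak list for each library. Per summit the deposited files hold a score, a fold enrichment (a ratio over the local background), the −log10 of a p-value and of a q-value, and the summit position. The score was not used, and the fold, the authors' value, only described or filtered peaks within its own list.

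Summit pileups in whole reads were solved from the deposited fold, taken as (pileup + 1) / (background + 1), and the Poisson tail, allowing a misfit of 0.001 on the −log10 scale, which gave 99.998% of control and 99.997% of overexpression summits. The lowest background was taken as the genome average. Solver and window counts were tested on simulated data. Gene spans and promoters came from RefSeq GRCh38.p14. Intervals are exact 95% Poisson or binomial intervals and cover counting error only, since summits are local maxima and reads may be PCR copies. Coordinates are counted from 1.

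Members and lists were chosen with earlier results of these data known. By the rule for named genes, every member is accounted for, with full values for those called in both libraries, for those in the upper part of the pileups and for the 4 non-muscle genes. Groups were taken from the genotype label. Alternatives varied the window, the fold and q-value limits, list length, overlap and gene end. Python 3.11.15, numpy 2.4.6, pandas 2.3.3 and scipy 1.17.1 were used.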

Additional observations from a re-analysis of the deposited data

How the results depend on the processing

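No paired analysis was possible because each group had 1 library. Of 76 recomputed values, 57 stayed within 1.5 times the reported value, up or down, and 19 moved beyond it. Some of the moved counts still lay within the counting interval of the reported one. With a window of 5000 bp the members with a gene-end summit in control rose to 27, of them 13 striated and 8 of smooth muscle or broad use, and the striated count in the TCF19 library to 17, against 79.6% and 82.9% of all genes. At a fold of at least 4, the counts were 6 members in control and 10 with TCF19, of them 1 and 4 striated, 2 of 4 non-muscle and 4 of smooth muscle or broad use in the TCF19 library, against 22.6% and 39.2% of all genes. The densities inside members at that fold were 1.69 and 2.04 per 100 kb, and inside striated genes 1.53 and 1.07, against 2.44 and 1.86 over all genes. At the gene start only, where 28 members could be placed, 7 and 13 had a summit, of them 1 and 3 striated. Leaving out summits also at another gene's end left 2 non-muscle genes in the TCF19 library. These alternatives test fewer or more summits or genes by construction. The striated share was below that of all genes in both libraries under all 9 alternatives. Each alternative counts again the lists on which the set was selected, so this agreement is no independent support. With lists of equal length the striated counts were 3 and 11, and 38.7% and 65.1% of all genes.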
